A study of Mus musculus with 20 samples.

Results

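The respiratory chain and the ATP synthase were described from 93 of the 29986 genes in the count table, chosen by gene symbol: subunits of complex I (Nduf), II (Sdh), III (Uqcr), IV (Cox) and V (Atp5), and the mitochondrial DNA genes of the Nd, Co, Atp and Cytb series. Of the 93, 81 are nuclear protein-coding genes, 5 are pseudogenes and 7 lie on mitochondrial DNA (mt-Co1, mt-Cytb, mt-Nd1, mt-Nd2, mt-Nd4, mt-Nd5 and mt-Nd6). The other protein-coding mitochondrial genes were not analysed here. By complex, 40 members belong to complex I, 4 to II, 9 to III, 16 to IV (with Ndufa4, now known as a subunit of that complex) and 15 to V. A further 4 carry a family name but are not core members: Ndufa4l2, Cox7a2l, Atp5s and Atp5sl. The study followed tenocytes, the fibroblasts of tendon, taken from tail tendon of C57Bl/6 mice (adult, wild type), in which recombinant insulin-like growth factor 1 (IGF1, 100 ng/mL) was applied for 1, 2, 6 or 24 h, against cells that received none (0 h). Each time had 4 RNA-seq libraries, 20 in all. Untreated cells at the later times were not analysed here, so IGF1 and time in culture cannot be told apart. Whether replicates are separate mice or cultures is not stated in the labels, so p-values measure only the spread between these libraries, which may be technical.

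The respiratory chain passes electrons from NADH and succinate to oxygen and pumps protons across the inner mitochondrial membrane, and ATP synthase uses that gradient to make ATP. Mitochondrial DNA encodes core subunits of complexes I, III, IV and V, while all other subunits, and all of complex II, come from nuclear genes, so both genomes supply each of the proton-moving complexes. Tenocytes live in a poorly vascularised, collagen-rich matrix and are known for a low resting oxygen use, and IGF1 is known as a growth signal that raises their protein and matrix synthesis.

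Libraries held 13734425 to 22687173 counts, of which the nuclear members took 0.488% to 0.743% and the mitochondrial members 1.25% to 1.69%. All 9 tenocyte markers were detected, and the tendon transcription factor Scx averaged 1736 ± 81.2 CPM (counts scaled to library size, here and below by edgeR's TMM factors, mean ± SD, n = 4) at 0 h.  Replicate 4 at 2 h held a summed 7356 CPM of nuclear members, against 5629 to 5897 CPM in the other 2 h libraries, and its 80 ribosomal protein genes summed to 31838 CPM, against 21299 to 23056 CPM. The 13 macrophage markers summed to 398 to 1033 CPM at 2 h, against 264 to 334 CPM at 0 h, with none at 0 in all libraries, and 10 of the 11 tested rose at 2 h. Their highest sum was in replicate 2 at 2 h, in which the nuclear members summed to 5741 CPM. The 7 Schwann cell markers summed to 101 CPM in the same library, against 30.8 to 34.1 CPM at 0 h. The 9 tenocyte markers summed to 57694 to 65597 CPM at 6 h, against 68156 to 79758 CPM at 0 h, so the groups did not overlap, with 2 of the 9 higher and 3 lower at 6 h. The 7 endothelial markers, of which 3 were tested, summed to 7.56 to 12.2 CPM at 6 h, against 38.2 to 41.3 CPM at 0 h. The part of these markers and of the ribosomal protein genes in the members' results was not tested.

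Levels in untreated cells differed widely between members when expressed per kilobase of exon. That length joins the exons of all annotated transcripts of a gene and can exceed its main mRNA, so ranks depend on it. It is 4237 bases for Atp5b and 702 for Cox6a1, which had 717 to 744 and 145 to 157 CPM at 0 h before the division. The mitochondrial genes stood highest: mt-Co1, a catalytic subunit of complex IV, had 3176 CPM per kb at 0 h, mt-Cytb of complex III 2431 and mt-Nd1 of complex I 1912. Among nuclear genes the leading levels were those of Cox6a1 (216 CPM per kb), Atp5b (173 CPM per kb, the catalytic β subunit of ATP synthase) and Atp5a1 (157 CPM per kb, its α subunit). The median nuclear gene had 23.9 CPM per kb in complex I, 40.2 in II, 35.3 in III, 20.7 in IV and 32.7 in V, so the complexes overlapped in level. The lowest tested genes in I, IV and V were Ndufb4 (1.42 CPM per kb), Cox7a1 (0.254 CPM per kb) and Atp5l (0.639 CPM per kb), but the counts of Ndufb4 and Atp5l are uncertain, since 40.2% of the Ndufb4 transcript and 72.2% of the Atp5l transcript match other annotated genes at 95% identity or more. No count of Cox7b2, a testis form, was found in 19 of the 20 libraries. The 5 pseudogenes and Cox7b2 had at most 0.238 CPM in any library and were not tested, which left 87 members (80 nuclear and 7 mitochondrial) among 14420 genes tested.

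**Figure D1:**
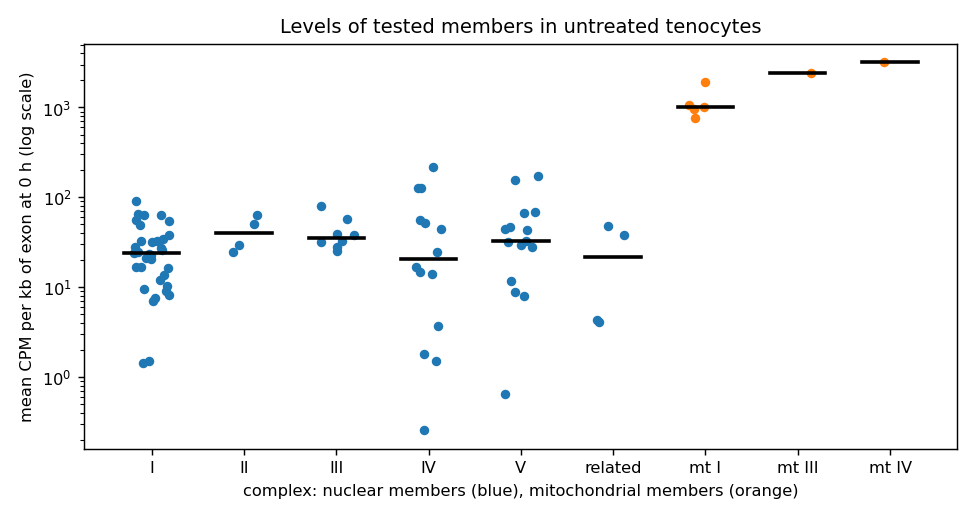
Mean CPM per kb of exon in the 4 untreated (0 h) libraries on a log scale, 1 point for each tested member, by complex, with nuclear members in blue, mitochondrial members in orange and the median as a black bar. The mitochondrial members lie between 761 and 3176 CPM per kb, above every nuclear member, of which the highest is at 216 CPM per kb.

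Promoter windows (250 bases before to 50 after the annotated start, RefSeq, GRCm38.p6) were matched by symbol for 66 of the 81 nuclear members, and 3 motifs known from respiratory gene promoters were searched on both strands. GCGCA, any base and GCGC in a run, the core bound by nuclear respiratory factor 1 (NRF1), was present in 17 of the 66 members (25.8%), against 5.19% of all genes with a window and 11.2% of the genes tested. AANATGGC, bound by YY1, was present in 16 of 66 (24.2%), against 6.96% of all genes and 9.83% of those tested. CCGGAAGT, bound by GABP and other ETS factors, was present in 5 of 66 (7.58%), against 4.31% of all genes and 8.7% of those tested. The windows below belong to Atp5k and Ndufs5, which were among the members with the largest increases at 2, 6 and 24 h, to Uqcr11 and Ndufa3, which were among them at 24 h, and to Cox7a2l, which had the largest decrease at 6 h. Capitals mark NRF1 matches in Atp5k and Ndufs5, the ETS match in Uqcr11 and the YY1 match in Ndufa3. The Cox7a2l window, at a RefSeq start inside the gene span given below, holds none of these letters. The outer end of that span was not searched. Cox7c and Cox5b, among the largest increases at 2 h, hold no match in their windows either. Nor do Atp5g1 and Ndufb2 of the 6 h increases or Cox5a of the 24 h ones. Ndufa6, called lower at 6 h, holds an NRF1 match. Whether matches go with changes was not tested.
Atp5k (chr5:108434350-108434649, minus strand): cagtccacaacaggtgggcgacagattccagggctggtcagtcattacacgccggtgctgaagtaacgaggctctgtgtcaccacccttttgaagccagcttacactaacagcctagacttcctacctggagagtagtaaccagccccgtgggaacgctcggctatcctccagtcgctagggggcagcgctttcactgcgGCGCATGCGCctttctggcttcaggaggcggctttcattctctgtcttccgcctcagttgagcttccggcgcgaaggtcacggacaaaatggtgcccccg
Ndufs5 (chr4:123718137-123718436, minus strand): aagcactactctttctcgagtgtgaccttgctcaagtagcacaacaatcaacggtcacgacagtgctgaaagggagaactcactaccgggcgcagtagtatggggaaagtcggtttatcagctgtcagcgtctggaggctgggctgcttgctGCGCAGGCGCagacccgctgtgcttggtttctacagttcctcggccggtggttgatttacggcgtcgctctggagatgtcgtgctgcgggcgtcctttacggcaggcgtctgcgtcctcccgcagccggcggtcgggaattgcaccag
Uqcr11 (chr10:80406772-80407071, minus strand): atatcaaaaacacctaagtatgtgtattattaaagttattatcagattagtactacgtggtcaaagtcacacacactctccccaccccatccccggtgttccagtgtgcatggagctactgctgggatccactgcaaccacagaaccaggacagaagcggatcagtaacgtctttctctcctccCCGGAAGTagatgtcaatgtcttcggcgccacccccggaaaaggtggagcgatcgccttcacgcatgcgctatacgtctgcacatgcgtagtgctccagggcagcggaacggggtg
Ndufa3 (chr7:3617123-3617422, plus strand): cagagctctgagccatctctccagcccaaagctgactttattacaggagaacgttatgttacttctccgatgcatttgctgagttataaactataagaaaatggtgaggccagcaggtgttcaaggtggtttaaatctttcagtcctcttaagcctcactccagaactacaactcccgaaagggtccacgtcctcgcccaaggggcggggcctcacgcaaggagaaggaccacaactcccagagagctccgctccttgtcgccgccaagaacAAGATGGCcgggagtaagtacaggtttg
Cox7a2l (chr17:83514284-83514583, minus strand): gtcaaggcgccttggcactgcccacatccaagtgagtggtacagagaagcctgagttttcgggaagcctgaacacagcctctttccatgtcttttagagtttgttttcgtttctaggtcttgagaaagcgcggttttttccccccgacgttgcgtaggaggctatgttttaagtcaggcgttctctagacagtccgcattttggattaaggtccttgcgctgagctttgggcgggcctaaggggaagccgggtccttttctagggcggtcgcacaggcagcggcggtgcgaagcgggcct

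A match is a run of letters and not a shown binding site. Of the 17 members with an NRF1 match, 7 belong to complex I, 6 to V, 2 to II and 1 each to III and IV. The YY1 letters were found in 12 members of complex I, 3 of V and 1 of IV.

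Many nuclear members rose by modest amounts from 2 h onward, while no mitochondrial member was called higher at any time. A gene was called at an edgeR quasi-likelihood adjusted p under 0.05 (Benjamini-Hochberg over all 14420 genes). At 1 h no member was called higher and 1, Atp5sl, was called lower, against a background of 6.75% of all genes higher and 3.88% lower. At 2 h 45 of 87 members (51.7%) were higher and 1 lower, against 20.2% of all genes higher and 17.5% lower. At 6 h 43 were higher (49.4%) and 4 lower, against 20.6% and 19.6% of all genes. At 24 h 36 were higher (41.4%) and 4 lower, against 12.7% and 13.2% of all genes. Every member called higher was nuclear. A change at any time was called for 56 members (64.4%), a share near that of all genes (63.7%).

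The median log2 fold change of the 80 nuclear members after 1, 2, 6 and 24 h was 0.10, 0.28, 0.26 and 0.23, and that of the 7 mitochondrial members 0.06, 0.09, 0.05 and −0.12, with the median of all genes tested between −0.01 and 0.00. The comparisons with 0 h share the same 4 libraries at 0 h. Leaving out replicate 4 at 2 h lowered the 2 h count to 29 members higher. All genes called higher at 2 h then numbered 2963, against 2916 with every library. The 24 h count was 21 without replicate 1 at 0 h and 18 without replicate 3 at 24 h. In these 2 fits all genes called higher at 24 h numbered 1567 and 1568, against 1836 with every library. Of the 55 nuclear members with no near-identical stretch in another gene, 29 were higher at 2 h, 29 at 6 h and 26 at 24 h.

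**Figure D2:**
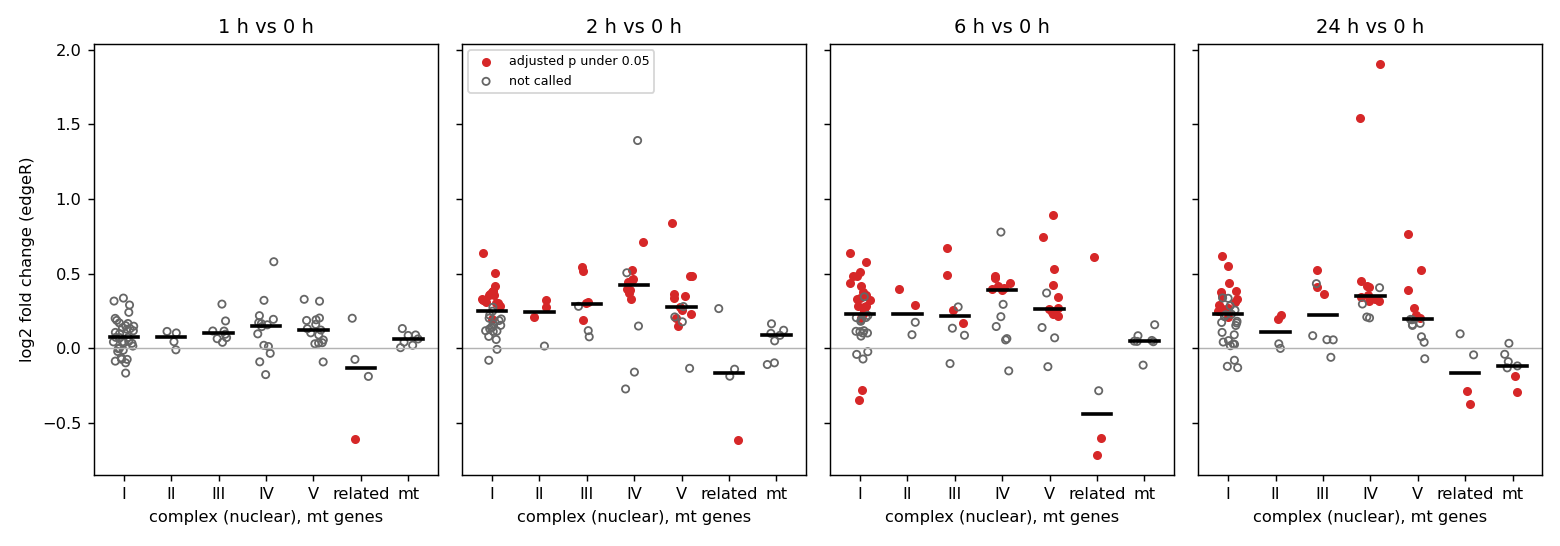
log2 fold change (edgeR) of each tested member at 1, 2, 6 and 24 h of IGF1 over 0 h, by complex for nuclear members, with the mitochondrial members (mt) in the last column. Red points have an adjusted p under 0.05, open points do not, and black bars are medians. Complex IV has the highest median at 2, 6 and 24 h (0.42, 0.39 and 0.35), and the mitochondrial members lie around 0.

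Summed over the 81 genes, the nuclear members held 6180, 6314, 6300 and 6102 CPM in the 6 h libraries, against 5040, 5205, 5329 and 5400 CPM at 0 h. The 24 h libraries held 5590, 5931, 6130 and 6015 CPM and the 2 h libraries 5629, 5741, 5897 and 7356 CPM. At each of these times all 4 libraries lay above the 4 at 0 h, and the mean was 1.17 times that at 0 h at 2 h, 1.19 times at 6 h and 1.13 times at 24 h. The 7 mitochondrial genes held 12841, 12150, 12266 and 13319 CPM at 24 h, against 12875, 14221, 14528 and 14599 CPM at 0 h, and the groups overlapped. Within a library the ratio of mitochondrial to nuclear member counts does not depend on scaling. It was 2.40, 2.25, 2.22 and 2.27 at 2 h, 2.18, 2.22, 2.32 and 2.33 at 6 h and 2.30, 2.05, 2.00 and 2.21 at 24 h, against 2.55, 2.73, 2.73 and 2.70 at 0 h. At these times no library reached the lowest ratio at 0 h, while the 1 h libraries (2.56, 2.46, 2.58 and 2.89) overlapped those at 0 h. In bulk RNA, fewer cells of a type and less RNA per cell cannot be told apart.

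**Figure D3:**
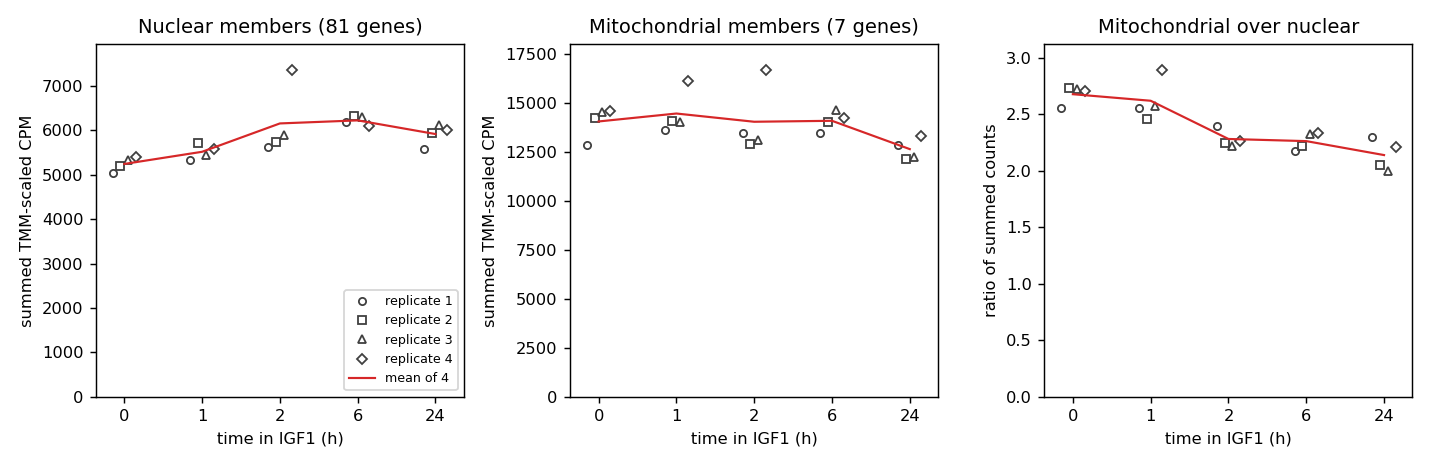
Summed TMM-scaled CPM of the 81 nuclear members, of the 7 mitochondrial members, and the ratio of their summed counts in each of the 20 libraries by hours in IGF1 (time points spaced evenly), with replicates as symbols and the mean of 4 as a red line. The nuclear sum averages 6224 CPM at 6 h, against 5243 CPM at 0 h, and the ratio 2.14 at 24 h, against 2.68 at 0 h; replicate 4 at 2 h is the highest library in both sums.

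Complex I oxidises NADH. Of its 35 tested nuclear genes, 17 rose at 2 h, 18 at 6 h and 14 at 24 h, with 2 lower at 6 h, and the median log2 fold change was 0.25, 0.23 and 0.23. The accessory subunit gene Ndufs5 (chr4:123712710-123718202, minus strand) had 12.28, 12.45, 14.57 and 11.97 CPM at 6 h, against 6.90, 8.93, 8.74 and 8.38 CPM at 0 h. Its 6 h libraries all lay above those at 0 h (log2 fold change 0.64 ± 0.15 (SE), adjusted p = 0.00138), as did its 2 h libraries (0.64 ± 0.15) and 24 h libraries (0.55 ± 0.16). Reads of Ndufs5 are uncertain in one respect, since 46.9% of its transcript matches 1 other annotated gene. Ndufa3, another accessory subunit (chr7:3617373-3620327, plus strand), had 31.8, 43.9, 46.4 and 50.9 CPM at 24 h, against 25.2, 28.7, 31.1 and 27.7 CPM at 0 h. All 4 libraries at 24 h were higher, though replicate 1 exceeded the top 0 h library by little (log2 fold change 0.62 ± 0.14, adjusted p = 0.00266). Ndufb2, of the membrane arm, rose to 12.8 ± 2.17 CPM at 6 h, against 8.55 ± 0.848 CPM at 0 h (0.58 ± 0.13, adjusted p = 0.000517), with 5.37% of its exons overlapped by genes on the opposite strand. Ndufv3, of the NADH-binding module, had 71.7, 73.2, 75.5 and 71.8 CPM at 6 h, against 50.2, 49.8, 51.8 and 57.1 CPM at 0 h. Its groups did not overlap and it was called (0.48 ± 0.076, adjusted p = 1.01e-05).

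Ndufa6, an accessory subunit of the matrix arm (chr15:82350140-82354322, minus strand), had 35.1, 31.6, 34.5 and 32.1 CPM at 6 h, against 38.3, 43.1, 44.0 and 44.1 CPM at 0 h. It was lower in every 6 h library (−0.35 ± 0.098, adjusted p = 0.00563) and was at −0.12 ± 0.098, not called, at 24 h. This call held under all 32 alternatives, and the gene was not called at 1, 2 or 24 h.

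Complex II, succinate dehydrogenase, also belongs to the citric acid cycle and is entirely nuclear. Its iron-sulphur subunit gene Sdhb had 94.8, 88.5, 88.4 and 79.4 CPM at 6 h, against 59.8, 69.0, 72.0 and 65.7 CPM at 0 h, with no overlap (log2 fold change 0.40 ± 0.077, adjusted p = 0.000142). Sdhc, a membrane anchor, rose at 2, 6 and 24 h, by 0.27 ± 0.072, 0.29 ± 0.072 and 0.20 ± 0.072, and the other anchor Sdhd rose at 2 h (0.21 ± 0.076, adjusted p = 0.03) and stood at 0.00 ± 0.076 at 24 h. The 2 h call of Sdhd held under 26 of 32 alternatives and was lost without replicate 4 at 2 h or replicate 1 at 0 h, and with the length offset. The flavoprotein subunit gene Sdha was not called at any time. It had 223, 228, 223 and 218 CPM at 6 h, against 209, 207, 211 and 210 CPM at 0 h, where the 6 h libraries lay above by little (0.09 ± 0.05, adjusted p = 0.155). At 24 h Sdhb (0.23 ± 0.077) and Sdhc were called, and these calls held under 26 and 19 of 32 alternatives; leaving out replicate 1 or 4 at 0 h, or 1, 3 or 4 at 24 h, ended both.

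Complex III passes electrons from ubiquinol to cytochrome c. Of its 8 tested nuclear genes, 5 rose at 2 h, 4 at 6 h and 3 at 24 h, with none lower and medians of 0.29, 0.22 and 0.22. The small subunit gene Uqcr11 (chr10:80402997-80406830, minus strand) had 23.7, 28.0, 37.3 and 31.8 CPM at 24 h, against 20.8, 22.1, 18.4 and 22.8 CPM at 0 h. All 4 libraries at 24 h were higher than any at 0 h, although replicate 1 was so by little (log2 fold change 0.52 ± 0.13, adjusted p = 0.00475). Uqcrb, which lies near the ubiquinone site, had 36.7, 38.9, 38.8 and 41.3 CPM at 6 h, against 18.2, 26.2, 28.4 and 24.9 CPM at 0 h. The 6 h libraries were close together and above 0 h (0.67 ± 0.16, adjusted p = 0.00228), while its 2 h call was lost without replicate 4 at 2 h. Copies limit both, since 38.4% of the Uqcr11 and 62.8% of the Uqcrb transcript match other genes. Uqcrc1, a core protein of the complex, rose at 6 h (0.17 ± 0.063, adjusted p = 0.0318), a call lost without replicate 1, 2 or 3 at 6 h or replicate 2 or 4 at 0 h, and Uqcrq, a small subunit near cytochrome b, rose at 24 h (0.41 ± 0.12, adjusted p = 0.0143), a call lost without replicate 3 at 24 h.

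Complex IV, cytochrome c oxidase, had the highest median of the nuclear complexes at 2, 6 and 24 h, at 0.42, 0.39 and 0.35, with 9, 7 and 10 of 14 tested genes higher and none lower. Its summed CPM was 828 ± 154 at 2 h, 789 ± 20.4 at 6 h and 804 ± 57.9 at 24 h, against 644 ± 32.9 at 0 h. The 2 h libraries summed to 713, 746, 800 and 1052 CPM, so replicate 4 raised the 2 h mean and the 2 h ratio given next. By the ratio of sums to 0 h, complex IV led at 2 h (1.29) and 24 h (1.25), while at 6 h complex V stood at 1.24 and complex IV at 1.23. Differences between complexes were not tested. Cox5a, one of the subunits next to the catalytic core (chr9:57521274-57532426, plus strand), had 41.4, 41.2, 39.2 and 40.6 CPM at 24 h, against 26.6, 30.5, 30.6 and 31.1 CPM at 0 h. Its 24 h libraries were tight, replicate 1 at 0 h stood below the other 0 h libraries, and the groups were apart (log2 fold change 0.45 ± 0.076, adjusted p = 4.17e-05). The gene was also higher at 2 h (0.47 ± 0.075) and 6 h (0.47 ± 0.075). Cox5b, another such subunit, rose by 0.53 ± 0.095 at 2 h, 0.39 ± 0.095 at 6 h and 0.36 ± 0.095 at 24 h. Cox7c, a small structural subunit (chr13:86044816-86046904, minus strand), had 27.2, 28.8, 29.9 and 38.4 CPM at 2 h, against 15.8, 20.7, 19.8 and 19.7 CPM at 0 h. All 2 h libraries lay above 0 h, with replicate 4 the highest (0.71 ± 0.1, adjusted p = 5.17e-06). Near-identical stretches of other genes cover 32.9% of the Cox7c and 45.1% of the Cox5b transcript, and 12.8% of the Cox5a exons overlap Gm26631 on the opposite strand. Ndufa4 had 94.8, 102, 101 and 105 CPM at 6 h, against 64.2, 76.7, 74.0 and 72.8 CPM at 0 h, again without overlap (0.49 ± 0.1, adjusted p = 0.000373).

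Several complex IV subunits exist as a widely used form and a form of heart and skeletal muscle or testis, and in the tenocytes the widely used forms had the higher levels. At 0 h Cox6a1 had 216 CPM per kb and the muscle form Cox6a2 3.70. Cox8a had 128 CPM per kb and the muscle form Cox8b 1.51, Cox7a2 55.4 and the muscle form Cox7a1 0.254, and Cox6b1 125 and the testis form Cox6b2 1.81. Of the common forms, Cox7a2 and Cox6b1 rose at 2, 6 and 24 h (0.40 ± 0.1 and 0.40 ± 0.098 at 6 h) and Cox8a at 2 h (0.37 ± 0.092) and 24 h (0.33 ± 0.092), while Cox6a1 was not called at any time (0.21 ± 0.089 at 24 h). Cox7b rose at 2, 6 and 24 h (0.42 ± 0.11 at 6 h), with 24.0% of its transcript matching other genes. Leaving out replicate 1 at 0 h or replicate 3 at 24 h ended the 24 h calls of Cox7a2, Cox6b1 and Cox7b, replicate 4 at 24 h those of Cox6b1 and Cox7b, and replicate 2, 3 or 4 at 0 h or 2 at 24 h that of Cox7b. The 2 h call of Cox7a2 was lost without replicate 4 at 2 h or replicate 1 at 0 h. Cox8b was low throughout, with 1.39, 1.03, 1.60 and 2.45 CPM at 24 h, against 0.695, 0.558, 0.109 and 0.805 CPM at 0 h. Even so its groups were apart (1.54 ± 0.4, adjusted p = 0.00509). Cox7a1 had 0.628, 0.603, 0.686 and 0.194 CPM at 24 h, against 0.232, 0.203, 0.109 and 0.00 CPM at 0 h, which overlapped, and its call (1.91 ± 0.69, adjusted p = 0.0406) was lost without replicate 3 or 4 at 0 h, or 1, 2 or 3 at 24 h, with no filter on low counts and with the length offset. The gene has few counts and no longer passed when 1 CPM in 4 libraries was asked for, so the Cox7a1 call is not firm. The 11 skeletal muscle markers summed to 8.97 to 23.2 CPM at 24 h, against 3.39 to 4.59 CPM at 0 h, with none at 0 in all libraries and Ckm, a defining enzyme of muscle, at 0.0151 ± 0.0302 CPM at 24 h and at 0 in every 0 h library. Among them Myh1 (5.43 ± 0.527 CPM at 24 h, against 0.591 ± 0.198 CPM at 0 h), Myh4 and Actn3 were called higher. Their part in the Cox8b and Cox7a1 results was not tested. Cox6a2 (0.20 ± 0.27) and Cox6b2 (0.41 ± 0.32) were not called at 24 h.

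Complex V, the ATP synthase, had 15 tested genes, of which 11 rose at 2 h, 11 at 6 h and 7 at 24 h, with none lower and medians of 0.28, 0.26 and 0.19. Atp5k, which encodes subunit e of the membrane part and is known for joining synthase dimers (chr5:108433244-108434448, minus strand), had the largest increase of the complex subunits with at least 5 CPM at each of the 3 times. Its level was 31.5, 33.0, 36.2 and 43.3 CPM at 2 h, 35.9, 36.0, 37.7 and 39.6 CPM at 6 h and 24.3, 32.8, 39.9 and 39.4 CPM at 24 h, against 16.3, 20.8, 24.2 and 19.3 CPM at 0 h. The 2 h and 6 h libraries lay well above 0 h, and replicate 1 at 24 h only just did. The log2 fold changes were 0.84 ± 0.14 (adjusted p = 3.99e-05), 0.89 ± 0.14 (adjusted p = 1.36e-05) and 0.76 ± 0.14 (adjusted p = 0.000175). They held under every alternative that was run, but 56.6% of the Atp5k transcript matches 1 other gene. Atp5j2, subunit f beside it, had 44.3, 52.1, 62.2 and 62.5 CPM at 24 h, against 35.5, 38.7, 37.5 and 41.8 CPM at 0 h, with no overlap (0.53 ± 0.13, adjusted p = 0.00307).

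The rotating ring of the synthase is built of c subunits, and Atp5g1, Atp5g2 and Atp5g3 encode the same mature c protein. Atp5g1 (chr11:96068852-96075670, minus strand) had 64.3, 68.6, 62.0 and 67.0 CPM at 6 h, against 38.8, 37.5, 36.3 and 43.5 CPM at 0 h. All 6 h libraries were far above 0 h (log2 fold change 0.75 ± 0.1, adjusted p = 1.51e-06), though part of its transcript matches other genes. Atp5g3, the highest of these genes with 67.3 CPM per kb at 0 h, had 204, 218, 218 and 210 CPM at 6 h, against 142, 145, 144 and 156 CPM at 0 h. It too was higher in each library (0.53 ± 0.077, adjusted p = 3.01e-06). Atp5g2 had 13.1, 13.2, 14.0 and 13.6 CPM at 6 h, against 16.9, 12.8, 14.5 and 14.4 CPM at 0 h, overlapped and was not called (−0.12 ± 0.12, adjusted p = 0.441). Of the catalytic head, Atp5b had 925, 938, 915 and 928 CPM at 6 h, against 717, 728, 735 and 744 CPM at 0 h. This was a small but tight difference (0.34 ± 0.053, adjusted p = 8.46e-06), and Atp5a1 (0.25 ± 0.052, adjusted p = 0.000306) and the γ subunit gene Atp5c1 (0.22 ± 0.079, adjusted p = 0.0293) also rose at 6 h. The Atp5c1 call was lost without replicate 1 or 2 at 0 h, or 2, 3 or 4 at 6 h.

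**Figure D4:**
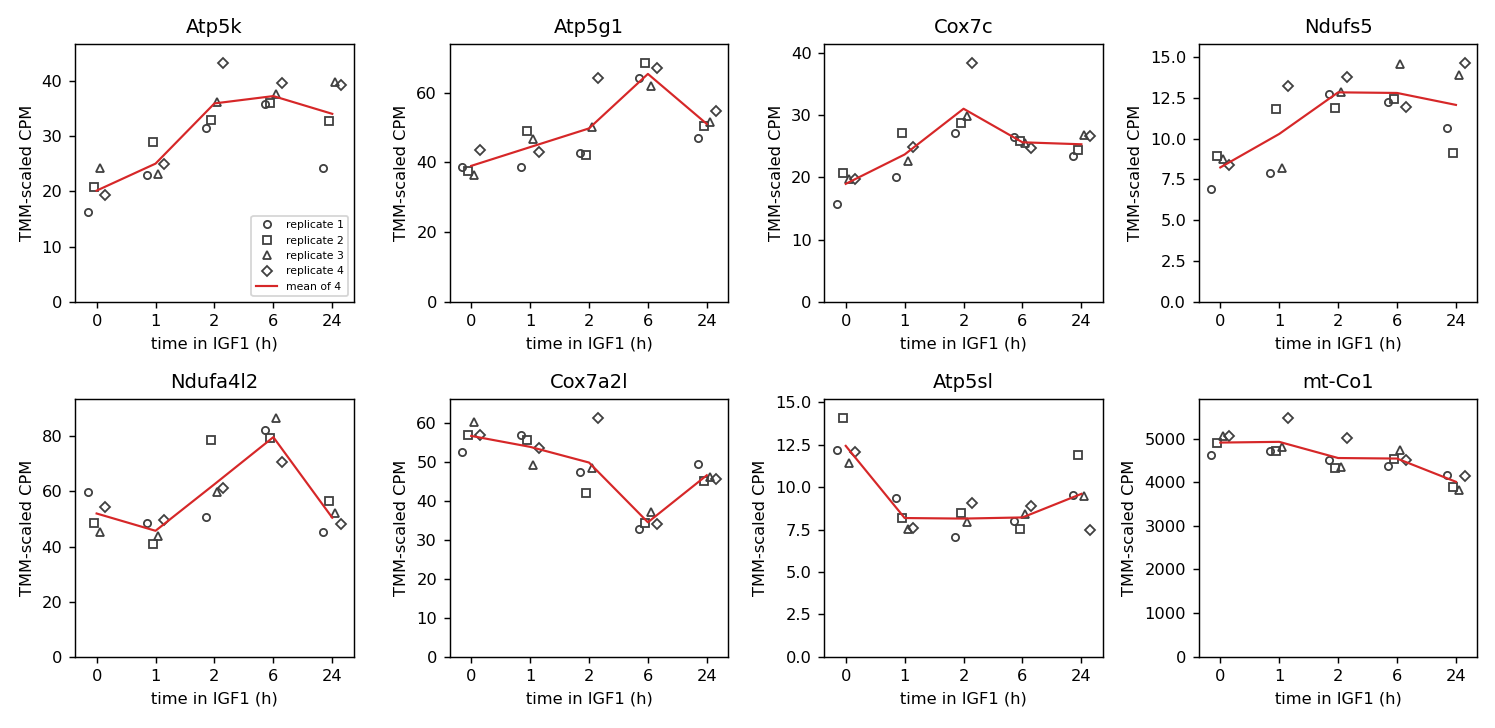
TMM-scaled CPM of Atp5k, Atp5g1, Cox7c, Ndufs5, Ndufa4l2, Cox7a2l, Atp5sl and mt-Co1 in each of the 20 libraries by hours in IGF1 (evenly spaced), with replicates as symbols and the mean of 4 as a red line, every axis from 0. Atp5k averages 37.3 CPM at 6 h, against 20.1 CPM at 0 h; Atp5g1 and Ndufa4l2 peak at 6 h, Cox7a2l is lowest at 6 h, Atp5sl is lower from 1 h, and mt-Co1 is lowest at 24 h.

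Cox7a2l, also called Scaf1, is known for tethering complexes III and IV into supercomplexes, and C57BL/6 strains carry a shortened, less active form of it. The gene (chr17:83501918-83517330, minus strand) had 32.7, 34.3, 37.1 and 34.1 CPM at 6 h, against 52.6, 57.1, 60.4 and 56.9 CPM at 0 h. Its 6 h libraries were all far below those at 0 h (log2 fold change −0.72 ± 0.084, adjusted p = 1.11e-07), and at 24 h it was still lower (−0.28 ± 0.083, adjusted p = 0.0124). Its 24 h call was lost with library totals alone. Near-identical stretches cover 17.8% of its transcript. Ndufa4l2, a hypoxia-induced relative of Ndufa4 known in other cells to lower complex I activity (chr10:127514967-127517154, plus strand), had 82.2, 79.3, 86.5 and 70.8 CPM at 6 h, against 59.8, 48.6, 45.3 and 54.2 CPM at 0 h. It was higher in every 6 h library (0.62 ± 0.11, adjusted p = 7.53e-05) and was at −0.04 ± 0.11, not called, at 24 h; 2.92% of its exons overlap Shmt2 on the opposite strand. Atp5sl, whose human product takes part in complex I assembly, was the only member called at 1 h. It had 9.39, 8.18, 7.56 and 7.59 CPM at 1 h, against 12.2, 14.1, 11.4 and 12.1 CPM at 0 h. Its log2 fold change was −0.61 ± 0.13 at 1 h (adjusted p = 0.00145), −0.61 ± 0.13 at 2 h, −0.60 ± 0.13 at 6 h and −0.37 ± 0.13 at 24 h, with overlap at 24 h. The 24 h call of Atp5sl held under 26 of 32 alternatives. It was lost with library totals alone, with no filter on low counts, and without replicate 2 at 0 h or 1, 3 or 4 at 24 h. Atp5s, a coupling factor of the synthase, was not called against 0 h at any time (−0.28 ± 0.13 at 6 h).

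The mitochondrial members are transcribed from mitochondrial DNA and need no nuclear promoter. None was called at 1, 2 or 6 h, and 2 of the 7 (28.6%) were lower at 24 h, against 13.2% of all genes. With only 7 genes these shares can hardly be compared. The complex IV gene mt-Co1 had 4169, 3896, 3825 and 4144 CPM at 24 h, against 4632, 4891, 5059 and 5046 CPM at 0 h. Every 24 h library was below every 0 h library (log2 fold change −0.29 ± 0.061, adjusted p = 0.000568). The complex I gene mt-Nd5 had 1757, 1610, 1599 and 1808 CPM at 24 h, against 1721, 1984, 1990 and 2007 CPM at 0 h. These overlapped through replicate 1 at 0 h, and the call was weak (−0.19 ± 0.064, adjusted p = 0.0332). It was lost with library totals alone and without replicate 2, 3 or 4 at 0 h, or 2 or 3 at 24 h. The other members were at −0.09 ± 0.08 (mt-Cytb), 0.03 ± 0.08 (mt-Nd1), −0.04 ± 0.083 (mt-Nd2), −0.13 ± 0.12 (mt-Nd4) and −0.12 ± 0.14 (mt-Nd6) at 24 h. Their levels at 6 h were 2869 ± 86.0 CPM for mt-Cytb, against 2781 ± 159 CPM at 0 h, and 1941 ± 67.8 CPM for mt-Nd1, against 1830 ± 127 CPM at 0 h. All of mt-Co1 and parts of mt-Nd2, mt-Nd4 and mt-Nd5 have near-identical copies in nuclear gene annotations, so their counts depend on how such reads were placed. The mitochondrial ribosomal RNA genes were not called either (mt-Rnr1 −0.11 ± 0.13 and mt-Rnr2 −0.12 ± 0.14 at 24 h).

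Between 6 and 24 h, 4 members were higher at 24 h and 12 lower, against 17.6% of all genes higher and 18.2% lower, and the median of the nuclear members was −0.02. With library totals alone in place of TMM, 10 members were higher and 5 lower, and 3174 of all genes were higher and 2032 lower (2537 and 2629 with TMM). Ndufa4l2 had 45.1, 56.4, 52.1 and 48.2 CPM at 24 h, against 82.2, 79.3, 86.5 and 70.8 CPM at 6 h, with no overlap (−0.66 ± 0.11, adjusted p = 4.56e-05). Atp5g1 (−0.36 ± 0.1), Atp5g3 (−0.33 ± 0.077), Ndufa8, a subunit of the intermembrane side (−0.29 ± 0.075), Ndufv3 (−0.24 ± 0.076), mt-Nd5 (−0.24 ± 0.064) and mt-Co1 (−0.18 ± 0.061) were also lower at 24 h than at 6 h. Cox7a2l had 49.6, 45.1, 46.3 and 45.6 CPM at 24 h, against 32.7, 34.3, 37.1 and 34.1 CPM at 6 h, and was higher in each library (0.43 ± 0.085, adjusted p = 0.000216). The other genes called higher were Cox8b (1.25 ± 0.4), Atp5s (0.38 ± 0.13) and Uqcr10, a small subunit of complex III (0.27 ± 0.11, with 43.8% of its transcript matching 1 other gene). The Uqcr10 call held under 22 of 32 alternatives and was lost without any 1 of the 6 h libraries, among others. Atp5s was lost without replicate 2 or 4 at 6 h or 3 or 4 at 24 h, mt-Co1 without replicate 2 or 3 at either time, Ndufv3 without replicate 1 or 3 at 24 h, and Cox8b without replicate 4 at 24 h. The calls of mt-Co1 and Ndufv3 were also lost with library totals alone. Atp5k, Ndufs5 and Cox5a were not called in this comparison, with values of −0.13 ± 0.13, −0.08 ± 0.15 and −0.02 ± 0.075.

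Genes of the pathway outside the symbol rule gave the counts below. They are to be read against the 20.2%, 20.6% and 12.7% of all genes called higher at 2, 6 and 24 h. The shares of all genes called lower at those times were 17.5%, 19.6% and 13.2%. Of 5 tested subunits with other names, 5 rose at 2 h, 3 at 6 h and 2 at 24 h. They include Cyc1, the cytochrome c1 of complex III, with 90.7 ± 3.99 CPM at 6 h, against 61.6 ± 5.58 CPM at 0 h (0.56 ± 0.078, adjusted p = 1.7e-06). Of 23 electron carriers and exchange proteins, 8 rose and 1 fell at 2 h, 10 rose and 1 fell at 6 h, and 4 rose at 24 h. Cycs, the mobile cytochrome c, had 29.3, 29.0, 26.5 and 30.1 CPM at 6 h, against 11.6, 14.7, 14.4 and 16.1 CPM at 0 h, far above in every library (1.02 ± 0.11, adjusted p = 5.08e-08). Slc25a5, an ADP/ATP carrier of growing cells, had 175, 190, 172 and 169 CPM at 6 h, against 85.8, 88.2, 87.6 and 102 CPM at 0 h (0.96 ± 0.078, adjusted p = 1.43e-10), while the carrier typical of muscle, Slc25a4, rose by 0.42 ± 0.072. The outer membrane channel gene Vdac1 was at 0.58 ± 0.056 and Pdss1, of coenzyme Q synthesis, at 0.94 ± 0.18. At 24 h Cycs (0.34 ± 0.12) and Slc25a5 (0.36 ± 0.078) were still higher than at 0 h.

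Of 14 factors of complex I, 1 rose at 2 h, 7 at 6 h and 2 at 24 h, led by Ndufaf4, with 33.6, 33.9, 33.3 and 41.6 CPM at 2 h, against 16.6, 19.7, 21.7 and 17.9 CPM at 0 h (0.91 ± 0.093, adjusted p = 1.27e-08). Ndufaf4 was already higher at 1 h (0.50 ± 0.094, adjusted p = 0.000462) and stood at 0.02 ± 0.096 at 24 h. Of 10 factors of complexes II and III, 2 rose at 2 h, 4 at 6 h and 2 at 24 h, among them Bcs1l, which inserts the Rieske protein (0.71 ± 0.1 at 6 h). Of 19 factors of complex IV, 5 rose at 2 h, 5 at 6 h and 2 at 24 h, shares near those of all genes. Higd1a, a hypoxia-inducible protein of the inner membrane, had 166, 171, 169 and 165 CPM at 6 h, against 35.3, 43.0, 41.7 and 41.3 CPM at 0 h (2.06 ± 0.086, adjusted p = 4.2e-16). It was the largest change in these lists at 6 h and stood at 0.21 ± 0.086, not called, at 24 h. Of 4 factors of complex V, Tmem70 rose at 2, 6 and 24 h.

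Among 20 genes of mitochondrial DNA copying and expression, 1 rose and 2 fell at 2 h, 4 rose and 1 fell at 6 h, and 1 rose and 1 fell at 24 h. The share higher was near that of all genes at 6 h and below it at 2 and 24 h. The RNA-stabilising factor gene Lrpprc had 106, 106, 103 and 105 CPM at 6 h, against 66.4, 70.9, 71.7 and 71.4 CPM at 0 h (0.58 ± 0.066, adjusted p = 5.85e-08). Pnpt1, of mitochondrial RNA turnover, was at 0.79 ± 0.093 and Top1mt, the mitochondrial topoisomerase, at 0.73 ± 0.13. The helicase gene Twnk had 8.90, 11.2, 7.43 and 11.1 CPM at 2 h, against 18.03, 15.13, 16.44 and 18.18 CPM at 0 h, lower in each library (−0.81 ± 0.12, adjusted p = 6.45e-06), and stood at −0.09 ± 0.12 at 6 h. Tfam, which packages mitochondrial DNA and starts its transcription, was at −0.08 ± 0.079 at 2 h, 0.04 ± 0.079 at 6 h and −0.22 ± 0.08 at 24 h, where it was called lower (adjusted p = 0.0433).

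Of 14 regulators of mitochondrial content, 6 rose and 2 fell at 2 h, 4 rose and 2 fell at 6 h, and 1 rose and 4 fell at 24 h. Pprc1, a growth-responsive relative of PGC-1, was called higher at 1 h (0.35 ± 0.08), 2 h (0.39 ± 0.08) and 6 h (0.40 ± 0.08), and lower at 24 h (−0.23 ± 0.081). Nrf1, whose motif was searched above, had 29.3, 31.1, 35.4 and 31.6 CPM at 2 h, against 24.9, 22.8, 23.6 and 25.7 CPM at 0 h (0.39 ± 0.079, adjusted p = 0.000295), and stood at 0.05 ± 0.079 at 6 h. Esrra, a nuclear receptor of mitochondrial genes, rose by 0.41 ± 0.089 at 2 h and 0.38 ± 0.09 at 6 h, while Gabpa, the DNA-binding subunit of GABP, fell (−0.29 ± 0.063 and −0.24 ± 0.063). On the opposite strand Gabpa overlaps 12.68% of the exons of Atp5j, a member called higher at 2 and 6 h. Counts of both genes are uncertain where they overlap. Ppargc1a (1.53 ± 0.411 CPM at 6 h, against 2.26 ± 0.708 CPM at 0 h) and Ppargc1b, which encode PGC-1α and PGC-1β, were low and were not called. Of 20 genes of the citric acid cycle and pyruvate oxidation, 8 rose and 2 fell at 2 h, 10 rose and 3 fell at 6 h, and 2 rose at 24 h, with Idh3a (0.68 ± 0.085), Mdh2 (0.54 ± 0.065) and citrate synthase (Cs, 0.44 ± 0.048) among the 6 h genes.

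**Figure D5:**
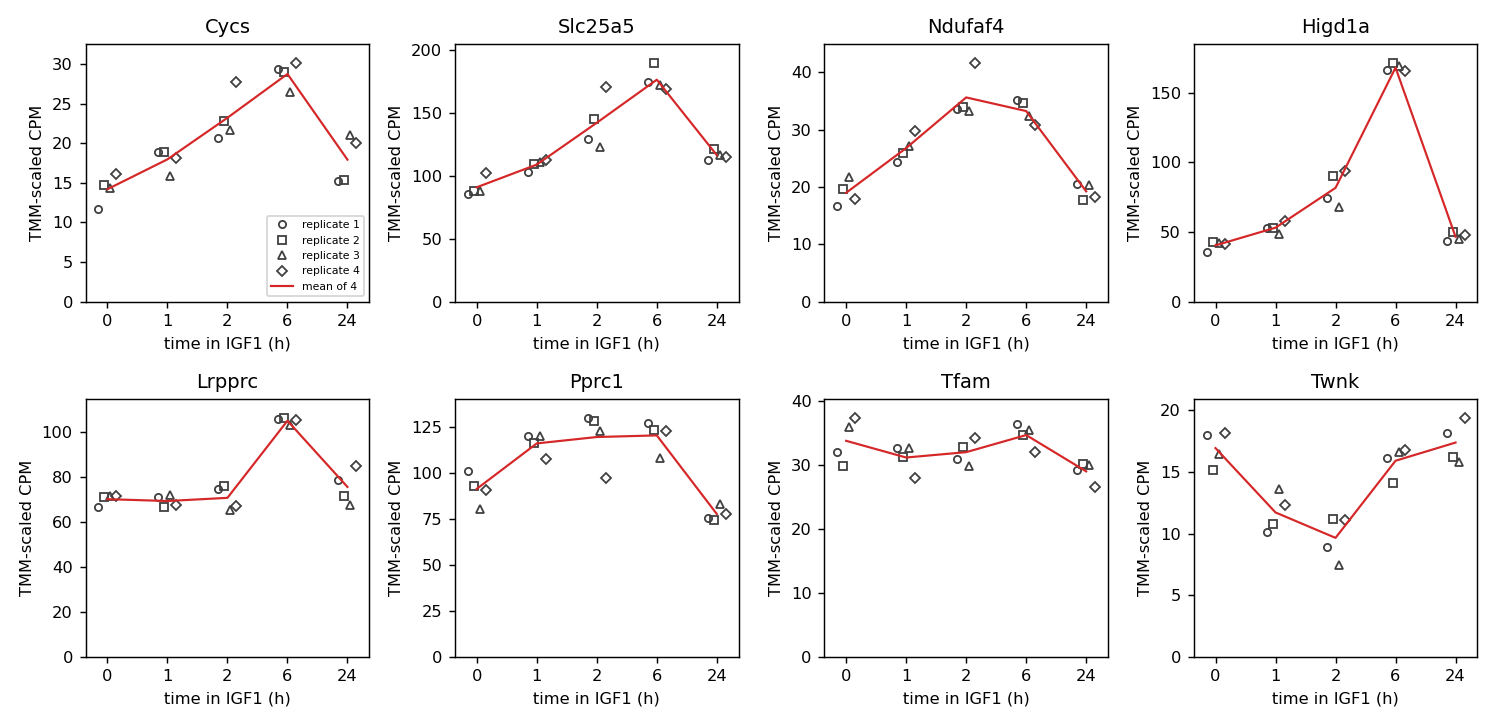
TMM-scaled CPM of Cycs, Slc25a5, Ndufaf4, Higd1a, Lrpprc, Pprc1, Tfam and Twnk in each of the 20 libraries by hours in IGF1 (evenly spaced), with replicates as symbols and the mean of 4 as a red line, every axis from 0. Higd1a averages 40.3 CPM at 0 h, 168 CPM at 6 h and 46.5 CPM at 24 h; Cycs, Slc25a5 and Lrpprc also peak at 6 h, and Twnk is lowest at 2 h.

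Gene length moved with the members' values. Across the 80 tested nuclear members, which share the libraries and their depth, the log2 fold change and the log2 exonic length had a Pearson correlation of −0.30 (Spearman −0.31) at 2 h, −0.10 (−0.07) at 6 h and −0.40 (−0.36) at 24 h. The 20 members with an exonic length up to 1000 bases had a median log2 fold change of 0.33 at 24 h, against 0.03 for all 555 genes tested in that range, and the 10 members over 4000 bases had 0.17, against −0.02 for 7837 genes. At 2 h the short and long members had medians of 0.34 and 0.28, against 0.08 and −0.05 for all genes tested in those ranges. At 6 h the members had 0.25 and 0.27, against 0.02 and −0.02. At 24 h the members' log2 fold change also had a Pearson correlation of −0.55 (Spearman −0.38) with their log2 mean CPM. A fit with an offset for length in each library called 31 members higher at 2 h, 44 at 6 h and 35 at 24 h. In that fit 3015, 3119 and 1991 of all 14420 genes were higher at these times, against 2916, 2964 and 1836 without the offset.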

How the data were processed

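RNA-seq was available for 20 libraries of tail tendon tenocytes, 4 at each of 5 times in IGF1, grouped and numbered as in the labels. The authors deposited raw read counts per gene for 29986 genes. Per the submitters' processing notes, FastQC, STAR, edgeR and the mm10 build were used; the sources used here do not give versions, the counting tool or its use of strand. The authors' own table of edgeR results was not used. All genes were fitted together in edgeR 4.0.16 (R 4.3.3): 14420 genes passed filterByExpr, holding 99.9% of all counts. TMM set the library scaling, and 1 robust quasi-likelihood fit without covariates held all 20 libraries, two-sided, with Benjamini-Hochberg adjustment over all genes tested and calls under 0.05. Each SE was taken as the absolute log2 fold change divided by the square root of F. The fit was tested on simulated data with known changes. Depth of 13734425 to 22687173 counts limits low genes most.

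Gene positions, exonic lengths and transcripts came from GENCODE M21 (GRCm38). Near-identical copies are stretches of a member's longest transcript with at least 95% identity over at least 75 bases to transcripts of other genes, and genes that share exons on the opposite strand are uncertain in the same way. Promoter windows came from RefSeq (GRCm38.p6). The members and lists were chosen with earlier results of these data known. Members named with values are up to 6 called members in each direction and contrast of the largest change with at least 5 CPM in the higher group, the mitochondrial members, tissue and duplicate forms, the 3 highest and lowest levels per complex, and counts of 5 or fewer; Sdha, Sdhb, Sdhc, Sdhd, Atp5a1, Atp5b and Atp5c1 enter by their levels. From the other lists, up to 4 called genes a list and time were named, with Tfam, Ppargc1a, Ppargc1b, Pprc1, Nrf1, Cycs and Cyc1 always; Gabpa and Slc25a4 were added after their values were seen. Alternatives were RLE scaling, library totals alone, other filters, DESeq2 1.42.0, a replicate block, a length offset (lowess, span 0.3), 1 surrogate variable (sva 3.50.0), only the libraries compared, and leaving libraries out. The values of 1 member called lower at 6 h are not reported here.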

Additional observations from a re-analysis of the deposited data

Results flagged for a closer look

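Of 240 groups of 4 libraries, 21 had 1 library whose gap to the others exceeded Dixon's 95% critical value, a mark that chance alone gives in about 1 in 20 groups. Of these, 11 were 2 h replicate 4, which was the highest of its group each time. In that library the summed CPM of the nuclear members was 543 in complex II (457 to 466 in the other 2 h libraries), 719 in complex III (528 to 546), 2938 in complex V (2345 to 2387) and 7356 in all (5629 to 5897). Its mitochondrial members summed to 16677 CPM (12896 to 13489). Single genes that stood out there were Atp5g3 at 257 CPM (184 to 193), Cox7a2 at 83.8 CPM (57.3 to 61.8), mt-Cytb at 3624 CPM (2575 to 2744), mt-Nd1 at 2470 CPM (1798 to 1856), mt-Nd2 at 1422 CPM (1008 to 1073) and mt-Nd4 at 1558 CPM (919 to 1003).

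At 0 h, replicate 1 was low in the ratio of mitochondrial to nuclear counts, at 2.55 (2.70 to 2.73 in the others), in mt-Nd5 at 1721 CPM (1984 to 2007), in mt-Nd6 at 410 CPM (533 to 543) and in Cox5a at 26.6 CPM (30.5 to 31.1). At 1 h, replicate 4 was high in mt-Co1 at 5463 CPM (4716 to 4796) and mt-Cytb at 3201 CPM (2733 to 2763), replicate 3 in Ndufb2 at 12.4 CPM (9.05 to 9.57) and replicate 2 in Cox7a2 at 67.4 CPM (54.4 to 56.6). Ndufa8 was at 68.9 CPM in 6 h replicate 2 (60.4 to 61.8), and Cox7a1 at 0.194 CPM in 24 h replicate 4 (0.603 to 0.686).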

How the results depend on the processing

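No direction that was called reversed under any alternative. Of the members called, 24 of 46 at 2 h, 36 of 47 at 6 h, 15 of 40 at 24 h and 6 of 16 between 6 and 24 h kept their call under all of them, as did the 1 at 1 h. The cause of the following shifts was not tested. Counts over all genes moved as well. At 1 h, genes higher numbered 973 in the chosen fit, 1403 with 1 surrogate variable and 1205 with only the libraries compared. With no filter they numbered 854 of 29986 tested. Members called higher at 1 h (0 in the chosen fit) numbered 4 with 1 surrogate variable or no filter, 3 with the length offset, alone or with the replicate block, 6 with only the libraries compared, 1 with DESeq2, and 2 and 4 without 2 h replicates 1 and 2 or 2 and 4; those lower numbered 2 with the surrogate variable and with either length offset. At 2 h, 27 were higher with only the libraries compared and without 2 h replicates 2 and 4; 5 were lower without those 2 libraries and with the length offset, and 4 with the surrogate variable and with block and offset. All genes higher at 2 h numbered 1969 with only the libraries compared and 2385 without 2 h replicates 2 and 4, against 2916 in the chosen fit. At 6 h either length offset gave 7 lower. All genes lower at 6 h numbered 3120 with the length offset and 3085 with block and offset, against 2833 in the chosen fit. At 24 h library totals alone gave 56 higher and 1 lower, and either length offset 9 lower. With library totals alone the median of all genes at 24 h was 0.11, with 3267 genes higher and 1144 lower (1836 and 1910 with TMM). The length offset gave 2162 of all genes lower at 24 h, and block and offset 2125. Between 6 and 24 h, 2537 of all genes were higher and 2629 lower in the chosen fit. These numbered 2788 and 2838 with the length offset and 3257 and 3423 with only the libraries compared. Between 6 and 24 h, higher and lower members numbered 10 and 5 with library totals, 11 and 20 with the length offset, 9 and 20 with block and offset, 10 and 24 with only the libraries compared, and 12 and 20 without 2 h replicates 2 and 4; higher members numbered 13 with the surrogate variable and 7 without 2 h replicates 1 and 2.

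The nuclear median at 2 h (0.28) was 0.14 with either length offset, 0.21 with the surrogate variable, 0.15 without 2 h replicates 2 and 4, and 0.42 without 2 h replicates 1 and 2, and the mitochondrial one (0.09) changed sign, to −0.07 with the length offset and without replicates 2 and 4, −0.08 with block and offset, and −0.03 with the surrogate variable. The nuclear median at 6 h (0.26) was 0.31 with library totals, 0.21 with the length offset and with the surrogate variable, and 0.22 with block and offset, and at 24 h (0.23) it was 0.33 with library totals. The mitochondrial median at 6 h (0.05) was −0.019 with the length offset, −0.022 with block and offset and −0.011 with the surrogate variable, and at 24 h (−0.12) it was −0.20 with either length offset and −0.0083 with library totals.

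Leaving out each library in turn, members higher numbered 0 to 4 at 1 h, 29 to 54 at 2 h, 34 to 49 at 6 h, 18 to 48 at 24 h and 2 to 11 between 6 and 24 h; those lower 1 at 1 h, 1 to 5 at 2 h, 4 to 5 at 6 h, 2 to 5 at 24 h and 7 to 20 between 6 and 24 h; and those called at any time 50 to 68. In these fits all genes higher ranged from 762 to 1252 at 1 h and 2582 to 2963 at 2 h. They ranged from 2661 to 3372 at 6 h and 1564 to 2293 at 24 h. Between 6 and 24 h, 2134 to 2978 of all genes were higher and 2285 to 3058 lower. The nuclear median ranged from 0.05 to 0.12 at 1 h, 0.16 to 0.33 at 2 h, 0.23 to 0.28 at 6 h and 0.20 to 0.26 at 24 h. The mitochondrial median ranged from 0.01 to 0.10, −0.08 to 0.14, 0.01 to 0.07 and −0.17 to −0.07 at those times. The mean ratio of mitochondrial to nuclear counts ranged from 2.66 to 2.72 at 0 h, 2.53 to 2.68 at 1 h, 2.25 to 2.30 at 2 h, 2.24 to 2.29 at 6 h and 2.09 to 2.19 at 24 h.

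The deviations of libraries with the same replicate number correlated at −0.17 to 0.13, and 1 of 40 pairs was over 0.1. Pairs of different number ran from −0.20 to 0.18, with 4 of 120 over 0.1. Of 20 libraries, 2 correlated best with their own replicate number. These values cannot show whether libraries of the same number share a mouse or culture. With the number as a replicate block, members higher after 1, 2, 6 and 24 h numbered 2, 47, 45 and 39. Depth limits Cox7a1, Cox8b and other genes of few counts most.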
